A study of Sus scrofa with 9 samples.

Results

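The miR-15/16 family was examined in the spleen of the Ningxiang pig, a breed native to China, at 30, 90 and 210 days after birth. Its members here are the entries of the deposited small RNA table named ssc-miR-15a, ssc-miR-15b, ssc-miR-16, ssc-miR-195 or ssc-miR-497, whatever the precursor number, arm or length suffix. The rule found 10 entries among 975, of which 5 are the 5p arms and 5 are 3p arms. No 3p entry of mir-497 was analysed here. All 9 libraries were used, 3 per age, made from total RNA of whole spleen. No treatment or genotype separates the ages in the labels, and nothing there states that each library is from an animal of its own. The p-values therefore measure only the spread between these libraries.

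miRNAs of one family share a seed, the stretch near the 5′ end that pairs with target messenger RNAs and so decides most of the targets. The miR-15/16 family is known for holding back the cell cycle and for lowering the anti-apoptotic protein BCL2, and in human chronic lymphocytic leukaemia the locus of miR-15a and its neighbouring miR-16 precursor is often deleted. miR-15b with the other miR-16 precursor sits inside SMC4, a gene for a chromosome condensation protein, while miR-195 and miR-497 are made from a separate shared transcript. In the mouse, miR-195 is known for its part in the withdrawal of heart muscle cells from the cell cycle after birth.

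The 5p sequences are given because a shared seed is what joins the 5 members. Capitals mark the seed, bases 2 to 8, and T stands for U as in the deposited table.
miR-15b: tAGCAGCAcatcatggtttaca
miR-15a: tAGCAGCAcataatggtttgtg
miR-16: tAGCAGCAcgtaaatattggcg
miR-195: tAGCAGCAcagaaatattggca
miR-497: cAGCAGCAcactgtggtttgt
All 5 hold AGCAGCA at bases 2 to 8, and so did 6 of the 975 entries in all. The only other entry with this seed was miR-424-5p, which is encoded apart from the members on the X chromosome in human and mouse.
miR-424-5p: cAGCAGCAattcatgttttga

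Outside the seed the members fell into different pairs than their genes do. Counted from 1 at the 5′ end, with the first-named miRNA's base first, miR-16 and miR-195 differed at 3 of 22 bases (G10A, T11G and G22A). miR-15b and miR-15a differed at 4 of 22 bases (C12A, A20G, C21T and A22G). miR-15a and miR-497 differed at 4 of the 21 bases compared (T1C, T11C, A12T and A13G), whereas miR-16 and miR-497 differed at 10 of 21. In the RefSeq annotation of Sscrofa11.1, MIR15A neighbours MIR16-2, MIR15B neighbours MIR16-1 within SMC4, and MIR195 neighbours MIR497 within the long non-coding RNA gene LOC102161115. miR-195, a near copy of miR-16 in sequence, is therefore a neighbour of miR-497, from which it differed at 9 of 21 bases. Each RefSeq MIR16 entry lists both precursor numbers as synonyms, so the numbered 3p entries below are not tied to a locus here. Both precursors give 1 mature miR-16, which the table holds as 1 entry.

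The 3p sequences are given because they tell the precursors apart.
mir-15b-p3: cGAATCATtatttgctgctct
mir-15a-p3: cAGGCCATattgtgctgcctct
mir-16-2-p3: cCAGTATTaactgtgctgctgaa
mir-16-1-p3: aCCAATATtattgtgctgcttt
mir-195-p3: cCAGTATTggctgtgctgcccca
Capitals again mark bases 2 to 8. mir-16-2-p3 and mir-195-p3 share the letters CAGTATT there, so the 3p arms form no single seed family. The hexamer GCTGCT, the reverse complement of seed bases 2 to 7, was searched on the strand given. It occurred in 3 of the 5 3p members (60.0%) and in 9 of the 965 other entries (0.933%). In a miRNA hairpin the 3p arm pairs with most of the 5p arm.

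The values are the authors' normalised read numbers, a signal scaled per library, and are not raw counts. The libraries summed to 6.16 to 7.88 M (M, mega), and their depth, read from the smallest steps of the table, was estimated at 4.50 to 9.25 M reads, lowest in day 210 replicate 3. The value that stood for 5 reads, below which most sequences were listed at 0, ran from 3.62 to 8.001 and was highest in that same library. On the first principal component of all tested entries the day 210 libraries lay at 8.99, 28.0 and 33.3, and the other libraries between -15.2 and -7.85. Day 210 replicate 3 also lay apart on the second component, at 19.8.

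The members held 0.439% to 0.641% of all values in a library, and nearly all of that was 5p arm. miR-15b was the most abundant member, ranking 48 of 975 by its mean over the 9 libraries, followed by miR-16 (rank 81), miR-497 (124), miR-195 (147) and miR-15a (173). The 3p entries ranked between 225 for mir-15b-p3 and 572 for mir-16-2-p3. They made up 1.23% ± 0.0519 of the member values at day 30, 1.43% ± 0.0639 at day 90 and 0.938% ± 0.112 at day 210 (n = 3, mean ± SD). At day 30 miR-15a (692 ± 205.9) and miR-195 (688 ± 98.6) lay next to each other in this order and did not differ beyond their spread. By day 210 miR-195 stood at 1910.5 ± 335 and miR-15a at 624 ± 240 (means ± SD, n = 3).

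**Figure D1:**
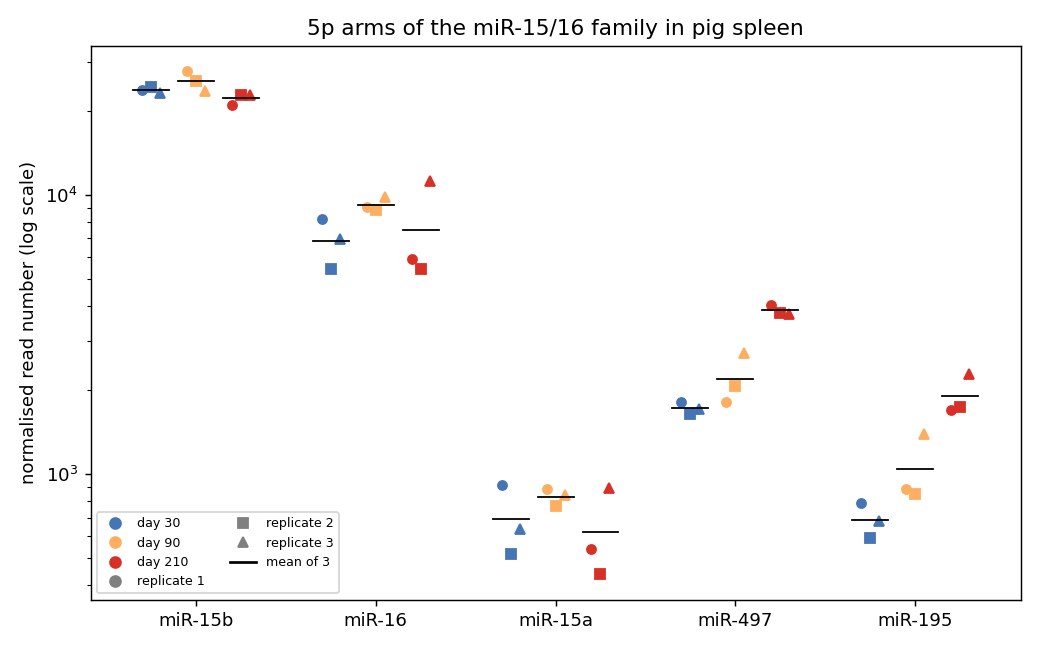
Normalised values (log axis) of the 5 members' 5p arms in the 9 libraries, by age. Points are libraries and bars are means of 3. miR-195 and miR-497 rise at day 210 above every earlier library, while miR-16 and miR-15a spread widely at day 210, with 1 high library each (11214 and 894 in replicate 3).

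miR-195 and miR-497 were the mature members that passed the test between days 30 and 210, and both rose. Mature miR-195 had values of 790.1, 593 and 681 at day 30, 887, 853 and 1393 at day 90, and 1695, 1740.3 and 2296 at day 210 (in the order of replicates 1 to 3, as in all such lists). The 3 day 210 libraries lay above every earlier library, and the day 90 libraries lay above those of day 30. miR-497, whose targets overlap with those of miR-195 through the shared seed, had values of 1809, 1645 and 1712 at day 30, 1817, 2078 and 2715 at day 90, and 4059.7, 3796 and 3744 at day 210. Here too no library of one age overlapped with those of another, though the lowest day 90 value lay close to the highest of day 30. In RNA of whole spleen, more cells of a type that makes these miRNAs and more miRNA per cell cannot be told apart, and likewise for every fall given below.

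Against day 30, miR-195 was 2.77-fold higher at day 210 (log2 1.47 ± 0.23, SE, adjusted p 0.00577) and miR-497 was 2.24-fold higher (log2 1.17 ± 0.16, adjusted p 0.00388) by limma with Benjamini-Hochberg adjustment over the 630 entries tested, at a threshold of 0.05. Both calls held under each of 21 alternatives, with a log2 difference of 1.24 to 1.57 for miR-195 and of 0.94 to 1.20 for miR-497. Against day 90, miR-497 was 1.78-fold higher (log2 0.83 ± 0.16, adjusted p 0.0185) and miR-195 was 1.86-fold higher (log2 0.89 ± 0.23, adjusted p 0.0395). miR-497 lost its call without day 90 replicate 1, day 90 replicate 2 or day 210 replicate 2, and miR-195 without any 1 of 7 libraries, all but day 90 replicate 3 and day 210 replicate 3. Both also lost it without the mean-variance trend (adjusted p 0.0535 and 0.0894) and with only the ages compared (0.0608 and 0.0829), and miR-195 after rescaling to equal sums (0.0728) and with all values raised to 1 common floor (0.0607). At day 90 against day 30 neither passed the test (miR-195 log2 0.57 ± 0.23, adjusted p 0.271; miR-497 log2 0.34 ± 0.16, adjusted p 0.375). Without day 90 replicate 3, the highest of that age for both, the differences were 0.35 and 0.18.

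mir-195-p3, the less abundant arm of the miR-195 hairpin, was called in no comparison. mir-195-p3 had values of 56.9, 36.2 and 37.6 at day 30, 44.1, 26.4 and 38.8 at day 90, and 53.3, 50.4 and 8.001 at day 210. The last value stands for an estimated 5 reads, and the 3 ages overlapped. Its log2 difference between days 210 and 30 was -0.58 ± 0.65 (adjusted p 0.595 by limma), and 0.27 without day 210 replicate 3. The ratio of miR-195 to mir-195-p3 came to 13.9, 16.4 and 18.1 at day 30, 20.1, 32.3 and 35.9 at day 90, and 31.8, 34.6 and 287 at day 210. Every day 90 and day 210 library lay above every day 30 library. The mean log2 ratio differed by 0.83 between days 90 and 30 and by 2.09 between days 210 and 30, or by 1.05 without day 210 replicate 3 (exact two-sided permutation p 0.1 for the first and second, adjusted p 0.3). An exact permutation p of 0.1 is the smallest that 3 libraries against 3 can give, and the adjustment runs over 27 tests of 9 ratios within the family.

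The ratio between miR-195 and miR-497 moved less than the values themselves. The ratio of miR-195 to miR-497 averaged 0.398 ± 0.0381 at day 30, 0.470 ± 0.0534 at day 90 and 0.496 ± 0.103 at day 210 (n = 3, mean ± SD), and the ages overlapped. Its log2 differed by 0.30 between days 210 and 30 (exact permutation p 0.2, adjusted p 0.386). Against miR-16, by contrast, both were higher in every day 210 library than in any earlier one. The ratio of miR-497 to miR-16 averaged 0.256 ± 0.0419 at day 30, 0.237 ± 0.0374 at day 90 and 0.573 ± 0.207 at day 210. Its log2 at day 210 was 1.09 above day 30 and 1.21 above day 90 (each exact permutation p 0.1, adjusted p 0.3). The ratio of miR-195, the near copy, to miR-16 was 0.101 ± 0.00696, 0.112 ± 0.0255 and 0.271 ± 0.0595 at days 30, 90 and 210, a log2 difference of 1.40 from day 30 and 1.27 from day 90 (each exact permutation p 0.1, adjusted p 0.3). In all, 9 of the 27 ratio tests had no overlap between the libraries compared, a part close to that of single entries. Of all tested entries, 27.9% to 30.2% had no overlap in the 3 comparisons of ages. The ratios share members and libraries, so their tests are not independent of each other.

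**Figure D2:**
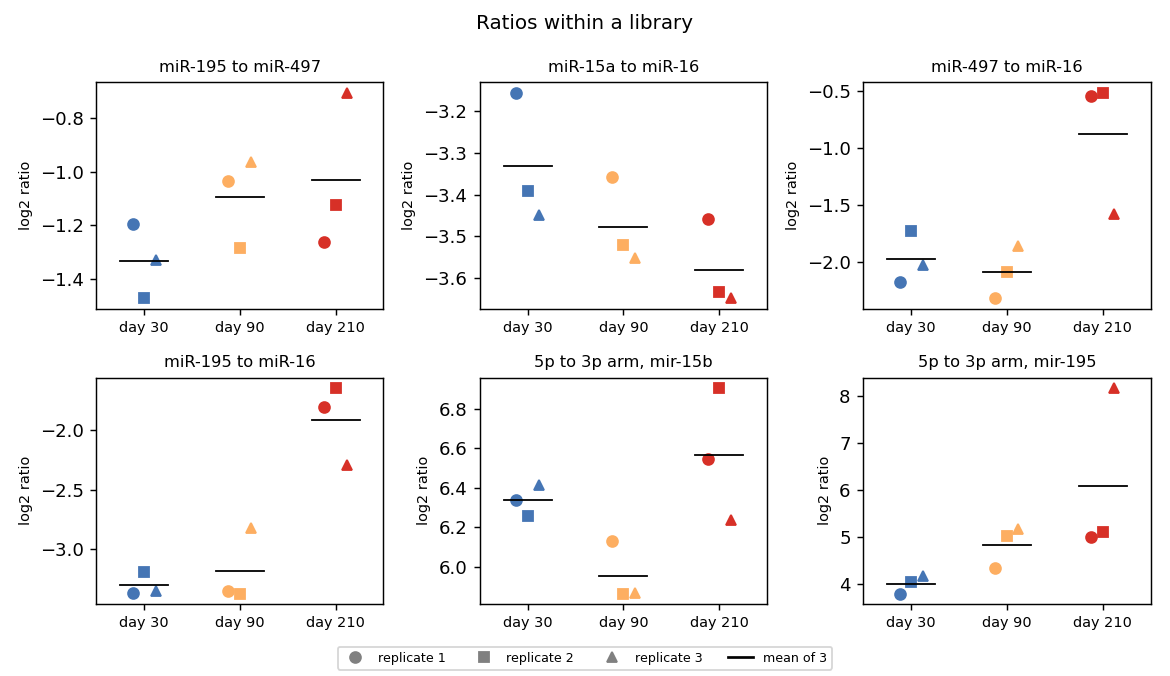
Ratios between members within a library (log2 axis), by age. Points are libraries and bars are means of 3. The ratios of miR-497 and miR-195 to miR-16 lie higher in all day 210 libraries than in the earlier ones, the ratio of miR-195 to miR-497 overlaps between ages, and the ratio of the mir-195 arms has 1 library far above the others at day 210 (287).

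miR-15b, the most abundant member, was nearly level. Its values were 23922, 24497 and 23281 at day 30, 27847, 25601 and 23627 at day 90, and 21054, 22892 and 22839 at day 210. The day 210 libraries all lay below those of both earlier ages, by a small margin. The log2 difference was 0.10 ± 0.11 at day 90 against day 30 (adjusted p 0.771), -0.10 ± 0.11 at day 210 against day 30 (adjusted p 0.579) and -0.20 ± 0.11 at day 210 against day 90 (adjusted p 0.259 by limma).

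The other arm of the same hairpin was called lower in 1 comparison. mir-15b-p3 had values of 295, 320.5 and 273 at day 30, 397, 439 and 404 at day 90, and 225, 191 and 302 at day 210. The day 90 libraries lay above all others, while days 30 and 210 overlapped. mir-15b-p3 fell at day 210 against day 90 (log2 -0.81 ± 0.21, adjusted p 0.0457 by limma), close to the threshold. The call was lost on leaving out any 1 library except day 210 replicate 3. It was also lost without the filter on low values (adjusted p 0.0637), with median-of-ratios scaling (0.0601), without the trend (0.0688), with only the ages compared (0.0912) and with the replicate block (0.0717). At day 90 against day 30 it was not called (log2 0.48 ± 0.21, adjusted p 0.317).

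The ratio of miR-15b to mir-15b-p3 averaged 80.9 ± 4.43 at day 30, 62.3 ± 6.82 at day 90 and 96.3 ± 22.3 at day 210 (n = 3, mean ± SD). The day 90 libraries lay below all others. Its log2 was lower at day 90 than at day 30 by a difference of -0.38 and higher at day 210 than at day 90 by 0.61 (each exact permutation p 0.1, adjusted p 0.3). At day 90 the arm ratio thus lay lower for mir-15b and higher for mir-195 than in every day 30 library, and neither difference could reach the threshold with 3 libraries.

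**Figure D3:**
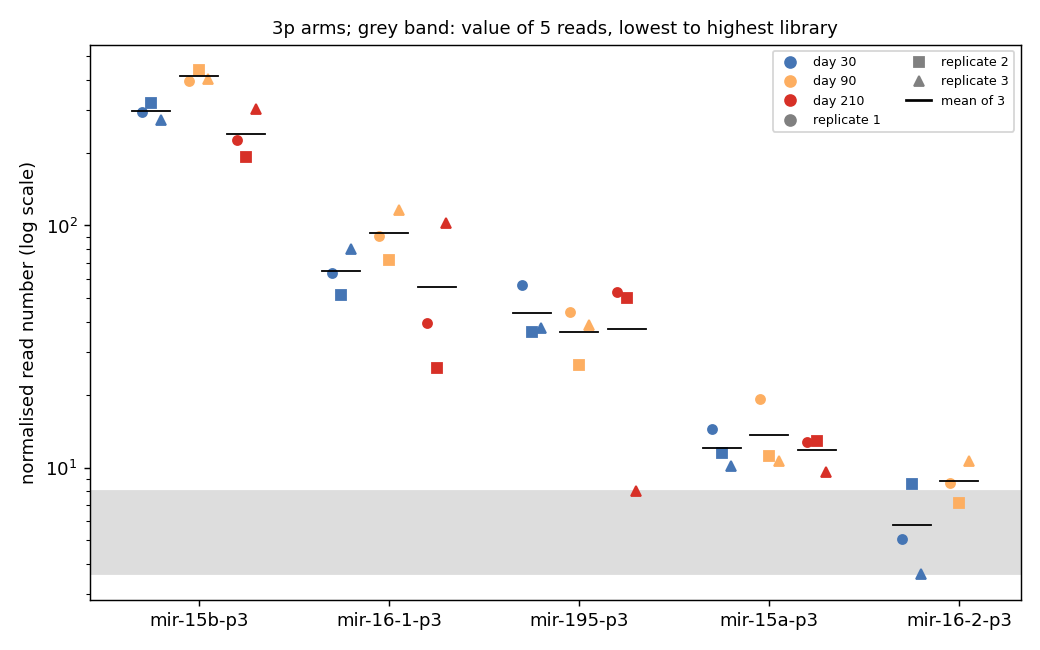
Normalised values (log axis) of the 3p arms by age. Points are libraries, bars are means of 3, and values listed at 0 are not drawn. The grey band spans the value of 5 reads from the lowest to the highest library (3.62 to 8.001). mir-15b-p3 is the most abundant, and mir-16-2-p3 lies within or close to the band and has no point at day 210.

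Mature miR-16 and miR-15a varied together from library to library and were not called in any comparison. miR-16 had values of 8190.4, 5438 and 6962 at day 30, 9067, 8856 and 9869 at day 90, and 5921, 5428 and 11214 at day 210. miR-15a had values of 919, 518 and 638 at day 30, 885, 772 and 842 at day 90, and 539, 438 and 894 at day 210. For both, replicate 2 was the lowest library of each age and day 210 replicate 3 stood far above the other day 210 libraries.

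The log2 difference of miR-16 was 0.45 ± 0.26 at day 90 against day 30 (adjusted p 0.461 by limma), where the libraries did not overlap, and 0.07 ± 0.26 at day 210 against day 30 (adjusted p 0.882). The latter sign turned to -0.16 when the libraries were rescaled to equal sums, a step that moved the median of all entries by -0.23, and to -0.26 without day 210 replicate 3. At day 210 against day 90 the difference was -0.38 ± 0.26 (adjusted p 0.381), but -0.71 and called (adjusted p 0.0217) without day 210 replicate 3. For miR-15a the differences were 0.31 ± 0.29, -0.17 ± 0.29 and -0.48 ± 0.29 in the same order (adjusted p 0.705, 0.720 and 0.304 by limma). Without day 210 replicate 3 those at day 210 were -0.47 against day 30 (adjusted p 0.190) and -0.77 against day 90 (adjusted p 0.0507). The ratio of miR-15a to miR-16 averaged 0.0997 ± 0.0110 at day 30, 0.0900 ± 0.00661 at day 90 and 0.0838 ± 0.00624 at day 210 (n = 3, mean ± SD). Days 210 and 30 did not overlap in this ratio (log2 difference -0.25, exact permutation p 0.1, adjusted p 0.3).

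miR-451, a miRNA processed independently of Dicer and most abundant in red blood cells, had the same order of libraries as miR-16 at each age. Its values were 13737, 6113 and 8809 at day 30, 11432, 9040.04 and 16633 at day 90, and 7529.6, 5005 and 20851 at day 210. Replicate 2 was the lowest library at every age, and day 210 replicate 3 the highest of all 9. The summed erythroid list (miR-144, miR-451 and miR-486, 4 entries, none at 0 in any library) ran from 15455 to 23770.04 at day 30, from 15366 to 23105 at day 90 and from 8179 to 24509 at day 210. miR-486, also abundant in red blood cells, stood at 5694, 3117 and 3591 at day 210, so there its highest library was replicate 1. Mature miR-144 stood at 43.7, 24.5 and 24.0 there, also highest in replicate 1, and mir-144-p5 at 26.7, 32.3 and 43.2. The order of libraries was not particular to miR-451, since mir-142-p5 of the blood cell list had it too. For mir-142-p5 the values were 16511, 10765 and 14342 at day 30 and 23106, 18992 and 25601 at day 90. At day 210 they were 12765, 11139 and 23842. The other entry of that list, miR-142-3p, stood at 383, 389 and 693 at day 210, so there its lowest library was replicate 1. How many of all entries have the order of miR-451 was not counted. The part of red or other blood cells in the spread of miR-16 and miR-15a was not tested.

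The 3p entries of miR-16 were low. mir-16-1-p3 had values of 63.6, 51.5 and 79.6 at day 30, 90.1, 72.2 and 116 at day 90, and 39.5, 25.8 and 102 at day 210. As for miR-16, day 210 replicate 3 was far above the other day 210 libraries. The log2 difference at day 210 against day 90 was -0.93 ± 0.48 (adjusted p 0.232 by limma), or -1.48 and called without that library (adjusted p 0.0188).

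mir-16-2-p3 had values of 5.09, 8.58 and 3.62 at day 30 and 8.63, 7.12 and 10.6 at day 90, and was listed at 0 in all 3 day 210 libraries. It was called lower at day 210 than at day 30 (adjusted p 0.0342 by limma) and than at day 90 (adjusted p 0.0203). No fold is given against libraries at 0. Its values lay close to the level of 5 reads, and with all values raised to 1 common floor (8.001) the log2 difference from day 30 was -0.03 (adjusted p 0.896) and that from day 90 was -0.16 (adjusted p 0.334). Leaving out 1 library ended the call against day 30 in 7 of 9 cases (all but day 210 replicates 1 and 3) and that against day 90 in 4 of 9 (without any day 90 library or day 210 replicate 2). It passed the filter on low values through the earlier ages, with no value above 10.6.

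mir-15a-p3 was also near that level, with values of 14.4, 11.4 and 10.1 at day 30, 19.2, 11.2 and 10.6 at day 90, and 12.8, 12.9 and 9.60 at day 210. The ages overlapped, and no comparison was called (adjusted p 0.959, 0.980 and 0.828 by limma for day 90 against 30, day 210 against 30 and day 210 against 90).

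Counted over the 10 entries, all of which passed the filter on low values, limma called 0 at day 90 against day 30, where 1.11% of all tested entries were called. 2 of the 10 had an unadjusted limma p under 0.05 in that comparison, beside 96 of all 630 tested entries. 9 of the 10 had higher values at day 90, beside 292 of the 630. The median log2 difference of the 10 was 0.39 against -0.04 over all tested entries. 4 had no overlap between the ages against 27.9% of all. The 10 include both arms of the same hairpins, so they are not separate observations. At day 210 against day 30 limma called 3 of 10 (2 higher and 1 lower), where 9.21% of all were called, 4.60% higher and 4.60% lower. The lower call is mir-16-2-p3, which is listed at 0 at day 210 and passed the filter through the earlier ages, and its call did not hold with the common floor. The median log2 difference of the 10 was -0.14 against -0.15 over all, and 4 had no overlap against 30.2% of all. At day 210 against day 90 limma called 4 of 10 (2 higher and 2 lower), where 8.10% of all were called, 4.13% higher and 3.97% lower. mir-16-2-p3 is again 1 of the lower calls, with the same limit. The median was -0.35 against -0.14, and 5 had no overlap against 29.2% of all. The count of 4 fell to 0 without day 90 replicate 1, day 90 replicate 2 or day 210 replicate 2, and was 6 without day 210 replicate 3. It was 2 without any 1 of the other 5 libraries, and 0 when only the 2 ages compared were fitted. The comparisons share libraries and are not independent of each other.

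**Figure D4:**
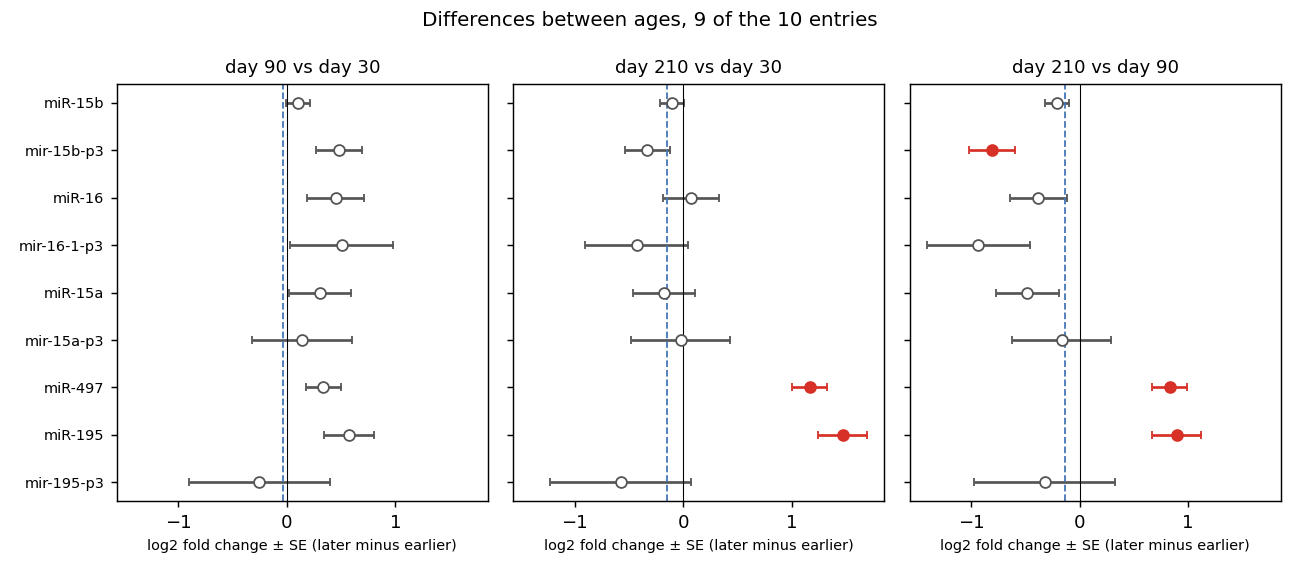
Log2 differences between ages of 9 member entries (points, with SE bars) in the 3 comparisons, from limma. mir-16-2-p3 is left out because it is listed at 0 at day 210. Filled red points have an adjusted p under 0.05 and the dashed line is the median of all tested entries. miR-195 and miR-497 lie to the right at day 210 in both comparisons, and mir-15b-p3 to the left against day 90 (-0.81).

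miR-195 and miR-497 made up a larger part of the 5 mature members at day 210. Their joint share of the summed 5p values averaged 7.11% ± 0.234 at day 30, 8.35% ± 2.09 at day 90 and 16.1% ± 1.28 at day 210 (n = 3, mean ± SD). At day 210 it ran from 14.7% to 17.3%, above the 6.68% to 10.7% of day 90 and the 6.85% to 7.30% of day 30. Over the same ages miR-15b held 70.7% ± 3.95, 65.8% ± 3.83 and 61.9% ± 5.64, and miR-16 held 20.2% ± 3.24, 23.8% ± 1.71 and 20.3% ± 6.17. The summed 5p arms were 33865 ± 1557, 39037 ± 1278 and 36183 ± 4192, or 0.530% ± 0.0431, 0.584% ± 0.0442 and 0.483% ± 0.0746 of all values. By library the sum at day 210 was 33268, 34294 and 40987, against 32691 to 35631 at day 30 and 38160 to 40503 at day 90. Its range overlapped with day 90 through replicate 3 alone, and without that library it lay below all of day 90. Its share of all values at day 210 was 0.445%, 0.435% and 0.569%, against 0.497% to 0.579% at day 30 and 0.547% to 0.633% at day 90, so that replicates 1 and 2 lay below every earlier library. The shares of miR-15b, miR-16 and miR-15a at day 210 overlapped with those of day 90. Against day 30 those of miR-16 and miR-15a overlapped too. The share of miR-15b lay below all of day 30, at 55.7% to 66.8% against 67.1% to 74.9%. These sums and shares are a description and were not tested.

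**Figure D5:**
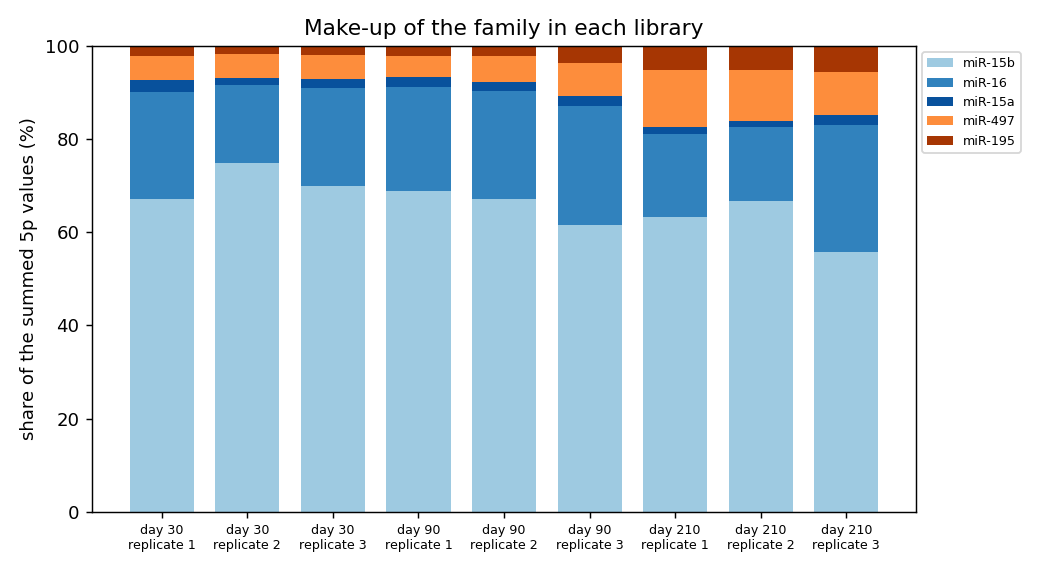
Share (%) of each member in the summed 5p values of the family, a stacked bar per library. miR-15b takes the largest part in all 9 libraries, and miR-195 with miR-497 takes 14.7% to 17.3% in the day 210 libraries against at most 10.7% before.

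miR-424-5p, which shares the seed but not the loci, was called in no comparison. It averaged 33.9 ± 9.01 at day 30, 19.3 ± 6.77 at day 90 and 32.7 ± 13.0 at day 210 (SD, n = 3). Its log2 difference was -0.80 ± 0.44 at day 90 against day 30 (adjusted p 0.434 by limma), -0.10 ± 0.44 at day 210 against day 30 (adjusted p 0.915) and 0.71 ± 0.44 at day 210 against day 90 (adjusted p 0.321).

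Profiles were compared by the root mean square difference of log2(value + 1) over the 9 libraries after centring each miRNA on its own mean, so that 0 means the same shape. Among the 5 mature members, miR-15a and miR-16 were nearest to each other (0.143), then miR-195 and miR-497 (0.214). The other pairs lay between 0.343 and 0.764, and the pairs of miR-195 with its near copy miR-16 (0.669) and with miR-15b (0.713) were among the farthest. Both nearest pairs are pairs of neighbouring genes, although mature miR-16 also comes from the gene beside miR-15b. As a description over 396 other pig miRNAs, the 3 nearest to miR-16 were miR-7-3p (0.0527), miR-148b-5p (0.101) and miR-27a (0.131), and those nearest to miR-15a were miR-210 (0.132), miR-140-5p (0.132) and miR-7-3p (0.133). The nearest to miR-15b were mir-29b-2-p5 (0.0668), miR-769-5p (0.0871) and miR-148b-3p (0.0924), all nearly level profiles.

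miR-664-3p was the nearest to both miR-497 (0.215) and miR-195 (0.276). It stood at 682 ± 105 at day 30, 974 ± 107 at day 90 and 1674 ± 178 at day 210 (SD, n = 3), a rise against day 30 (log2 1.30 ± 0.17, adjusted p 0.00388 by limma) and against day 90 (log2 0.78 ± 0.17, adjusted p 0.0248). The next nearest to miR-497 were miR-24-2-5p (0.235) and miR-194a-5p (0.262), and to miR-195 they were miR-133b (0.301) and miR-24-2-5p (0.332). miR-133b is known from skeletal and heart muscle. All 4 were called higher at day 210 than at day 30, which follows from likeness to members that rose.

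Lists of miRNAs known from cell types were read beside the members. Over all tested entries limma called 9.21% at day 210 against day 30 (4.60% higher and 4.60% lower). Against day 90 it called 8.10% (4.13% higher and 3.97% lower). Each list is short, so a count of calls in it is a description only. The smooth muscle list (miR-143 and miR-145, 4 entries, none at 0) summed to 1046668 to 1059875 at day 30, 813448 to 1111918 at day 90 and 1274003 to 1532620 at day 210. The day 210 libraries lay above all earlier ones, as for miR-195 and miR-497. 1 of the 4, miR-145-5p, rose (day 210 against day 30 log2 0.78 ± 0.17, adjusted p 0.0232 by limma; against day 90 log2 1.17 ± 0.17, adjusted p 0.00683), while miR-143-3p, the most abundant at 801049 ± 1251 and 999262 ± 142445 at days 30 and 210, was not called. The striated muscle list (5 entries, none at 0) summed to 7798 to 10748 at day 30, 5566 to 8742 at day 90 and 11485 to 14974 at day 210, again above all earlier libraries. In it miR-133b rose at day 210 against day 30 (log2 1.62 ± 0.36, adjusted p 0.0255) and miR-133a-3p against day 90 (log2 1.04 ± 0.20, adjusted p 0.0185). Library totals were also higher at day 210 than before, at 7.20 to 7.88 M against 6.16 to 7.03 M. The summed lists were not rescaled to these totals. The part of muscle cells in the rise of miR-195 and miR-497 was not tested.

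The B and T cell list held miR-150, miR-342, miR-155, miR-181a and miR-181b (9 entries, 8 tested). It summed to 204126 to 231907 at day 30, 238064 to 281096 at day 90 and 277418 to 290092 at day 210. Mature miR-181a alone held 83058 to 126225 of the sum over the 9 libraries. Of the list's entries only mir-181b-1-p3 was at 0 in any library, in 6 of 9. 1 of the 8 rose at day 210 against day 30, miR-150 (log2 0.94 ± 0.12, adjusted p 0.00388), and 1 against day 90, miR-342 (log2 0.56 ± 0.12, adjusted p 0.0205). miR-150 was also called higher at day 90 against day 30 (log2 0.75 ± 0.12, adjusted p 0.0190). At day 210 against day 30 the list's median was 0.19, against -0.15 over all tested entries. 5 of its 8 entries had higher values there, beside 265 of all 630. Against day 90 the list's median was -0.15, against -0.14 over all tested entries. 5 of its 8 entries had lower values at day 210, none of them called, beside 357 of all 630. The part of lymphocytes in the members' values was not tested. In the erythroid list 2 of 4 fell at day 210 against day 30, mir-144-p5 (log2 -1.54 ± 0.36, adjusted p 0.0266) and miR-486 (log2 -1.23 ± 0.21, adjusted p 0.00873). Of 3 epithelial entries tested, miR-205 rose from 49.6 ± 49.6 to 238 ± 95.8 (log2 2.59 ± 0.63, adjusted p 0.0324), while the list's median was 0.01 against day 30 and -0.96 against day 90. In both comparisons with day 210 limma called 0 of 13 tested entries of the myeloid, endothelial, fibroblast and liver lists and the miR-142 pair. An unadjusted limma p under 0.05 stood for 3 of these 13 entries in each comparison. Over all 630 tested entries it stood for 185 against day 30 and 171 against day 90. Beside the 9.21% and 8.10% called over all tested entries, 0 of 13 does not set these lists apart.

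Other miRNAs linked to the cell cycle were set beside the family. Of 24 tested entries of let-7, miR-98, miR-34, miR-449 and miR-26, all known for restraining growth, 1 rose at day 210 against day 30 and 0 fell, beside 4.60% of all tested entries in either direction. That was an entry named as let-7c with G in place of A at base 17 (log2 0.51 ± 0.11, adjusted p 0.0209 by limma). Which let-7 member it is was not settled here. The list's median was -0.08 against -0.15 over all. Of 24 tested entries of miR-17, miR-18, miR-19, miR-20, miR-25, miR-92, miR-93, miR-106, miR-363, miR-221 and miR-222, known for promoting growth, 0 rose and 2 fell at day 210 against day 30, and 0 rose and 3 fell against day 90. Called lower over all entries were 4.60% and 3.97%. mir-20b-2-p3 is 1 of the falls in each count, and it passed the filter on low values through the earlier ages. The list's medians were -0.46 against -0.15 over all and -0.62 against -0.14 over all. mir-92a-1-p5 fell from 164 ± 18.9 at day 30 and 157 ± 31.1 at day 90 to 53.9 ± 35.7 at day 210 (adjusted p 0.0377 and 0.0457), mir-20b-2-p3 was listed at 0 at day 210 (adjusted p 0.0229 and 0.0128, but 0.470 and 0.168 with the common floor), and miR-221-3p fell from 12814 ± 444 at day 90 to 8417 ± 682 (adjusted p 0.0196). Of the 20 calls of other miRNAs given here in both comparisons with day 210 and at day 90, 17 were lost on leaving out at least 1 library, all but those of miR-150 and miR-664-3p against day 30 and of miR-145-5p against day 90.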

How the data were processed

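Per the labels' protocols, TruSeq Small RNA libraries were made from spleen RNA and the reads were cleaned by the program ACGT101-miR. The sources used here give no aligner, genome build, miRNA database or way of scaling. Per the file headers, the authors deposited a normalised signal for each mature sequence, which is not a count. 5 of 980 entries that repeated the sequence and all values of another were dropped. Between 87.8% and 91.3% of non-zero values were whole multiples of a step per library (tolerance 0.01 of a step), from which depth was estimated by taking the commonest low value as 5 reads. Counting intervals are not given, since raw counts were not analysed.

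limma 3.58.1 in R 4.3.3 was fitted to log2(value + 1) of the 630 entries with at least 5 in at least 3 libraries, with 1 mean for each age, all 9 libraries and a mean-variance trend. Folds are on the log2(value + 1) scale. Calls have a Benjamini-Hochberg adjusted p under 0.05. The procedure was tested on simulated data with normal noise. These held no outlying library and no floor at 5 reads, so that test does not bear on the calls given here. Ratios were compared by exact permutation tests (scipy 1.17.1). The members and lists were chosen with earlier results of these data known. Other miRNAs named are those with the same seed, the 3 nearest profiles of each mature member, and, in each list, the most abundant entry or those called where a member was called. miR-451 is the most abundant erythroid entry and mir-142-p5 that of the blood cell list. miR-486, the miR-144 entries, miR-142-3p and the library order of mir-142-p5 were picked out after their values were seen.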

Additional observations from a re-analysis of the deposited data

How the results depend on the processing

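Of the members' calls, those of miR-195 and miR-497 at day 210 against day 30 held under all 21 alternatives, with adjusted p of 0.00424 to 0.0345 and 0.00287 to 0.0299. Counts of calls moved more, and the cause was not tested. At day 90 against day 30 the 7 calls over all entries became 13 with the common floor, 81 with sample weights, 29 with only the ages compared and 1 with the replicate block, and 1 to 20 with 1 library left out. 1 member, mir-15b-p3, was then called with sample weights (log2 0.52, adjusted p 0.0422). At day 210 against day 30 the 58 calls became 35 with a filter at 50, 92 after rescaling to equal sums, 38 with the common floor, 109 with sample weights, 11 with only the ages compared, and 9 to 90 with 1 library left out. At day 210 against day 90 the 51 calls became 32 with the filter at 50, 24 without the trend, 100 with sample weights, 14 with only the ages compared, and 8 to 112 with 1 library left out. The 4 members called there became 2 with the common floor, 1 without the trend, 0 with only the ages compared, and 0 to 6 with 1 library left out. Deviations of same-numbered libraries from their age means had correlations of -0.102 to 0.188. The highest was between the replicate 2 libraries of days 210 and 30. The labels do not say whether the numbers pair libraries, and low correlations cannot exclude it. The main fit used no pairing. With the replicate block 0, 2 and 3 members were called in the 3 comparisons. Signs turned only where no call stood. Between days 210 and 30 miR-16 was -0.16 with equal sums and -0.18 with sample weights, mir-15a-p3 was 0.00208 with median-of-ratios scaling and 0.15 with sample weights, and mir-195-p3 was 0.10 with sample weights (0.26 against day 90). With 1 library left out the log2 difference at day 210 against day 30 ran from -0.26 to 0.27 for miR-16, -0.47 to 0.0505 for miR-15a, -0.13 to 0.11 for mir-15a-p3, -1.02 to 0.27 for mir-195-p3 and -0.38 to 0.19 for miR-424-5p. Against day 90 it ran from -0.31 to 0.0896 for mir-15a-p3 and -0.77 to 0.53 for mir-195-p3, and at day 90 against day 30 from -0.11 to 0.28 for mir-15a-p3. Among log2 ratios it ran from -0.10 to 0.18 for miR-195 to miR-497 and -0.0417 to 0.48 for miR-15b to miR-16 (day 210 against day 90). Between days 210 and 30 it ran from -0.39 to 0.13 for miR-15b to miR-16 and -0.58 to 0.15 for the mir-15a arms. At day 90 against day 30 it ran from -0.23 to 0.0106 for miR-497 to miR-16, -0.0570 to 0.22 for miR-195 to miR-16, -0.0046 to 0.38 for the mir-15a arms and -0.20 to 0.0803 for the mir-16-1 arms.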
